A study of Mus musculus with 8 samples.

Results

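The regions described here are stretches of accessible chromatin in mouse pro-B cells whose ATAC-seq peak was called in all 4 DMSO libraries and in none of the 4 dTAG-13 libraries. They were chosen by these peak calls, among the 54239 distinct regions of the authors' deposited table for the line EBF1-dTAG_C, with an overlap of at least 1 bp counting as a peak. The rule left 1917 regions, which is 3.53% of all regions and 7.13% of the 26905 regions with a peak in all 4 DMSO lists. They are called lost regions below, and "lost" refers to the peak call alone. All libraries come from pro-B cells that Abelson murine leukaemia virus (A-MuLV) had transformed, and in which an exogenous modified gene replaced endogenous EBF1. The names of the lines, EBF1-dTAG_C and EBF1-dTAG_N, give that gene a dTAG degron, and the DMSO libraries carry it too. Cells of either line had 6 h of dTAG-13 at 0.5 uM or 6 h of its solvent DMSO. Each of these 4 groups holds 2 libraries, biological replicates according to the series. The DMSO libraries are 0 h by their titles and 6 h by their treatment label, which was followed. All cells are transformed, the replacement is shared by both groups, and how many clones each line holds is not given in the sources used here.

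EBF1 acts with the E2A proteins and PAX5 to set up the B cell lineage, and it binds DNA as a dimer at a palindromic site with the core CCCNNGGG. It can bind in closed chromatin and help to open it, so enhancers and promoters of early B cell genes depend on it during development. A dTAG degron is a protein tag through which dTAG-13 brings the tagged protein to an E3 ubiquitin ligase for degradation. ATAC-seq marks accessible DNA by the insertion of adapters with the Tn5 transposase. The amount of EBF1 protein was not measured in these data. Because each library comes from many cells, a lower signal in every cell and a full closure in some of the cells cannot be told apart.

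Sequence could be read only where a lost region overlapped a RefSeq promoter window, which runs from 250 bases before to 50 bases after a gene start (build GRCm38.p6). That held for 30 lost regions, at 32 windows of 30 genes. The CCCNNGGG core, which reads alike on both strands, stood in 17 of the 32 windows. The 7 stretches shown first are those in front of a protein-coding gene whose core lies within 50 bp of the DMSO peak summit, and Ank2 is added because its core is flanked by a T before and an A after it, a longer palindrome. Each runs up to 40 bases on either side of the core, 5′ to 3′ on the strand of the gene, with the CCCNNGGG core in capitals.

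1700003F12Rik (chr2:154548731-154548818, plus strand): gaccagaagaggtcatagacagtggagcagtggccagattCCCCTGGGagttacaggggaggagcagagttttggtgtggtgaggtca

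Stard10 (chr7:101316836-101316884, plus strand): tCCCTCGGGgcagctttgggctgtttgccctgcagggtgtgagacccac

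Kcnk4 (chr19:6934585-6934672, minus strand): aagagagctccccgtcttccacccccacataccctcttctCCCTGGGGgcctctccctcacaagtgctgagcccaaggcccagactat

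Gm14137 (chr2:119174323-119174410, plus strand): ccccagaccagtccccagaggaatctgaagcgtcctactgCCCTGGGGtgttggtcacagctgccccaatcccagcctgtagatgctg

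Perm1 (chr4:156215812-156215899, plus strand): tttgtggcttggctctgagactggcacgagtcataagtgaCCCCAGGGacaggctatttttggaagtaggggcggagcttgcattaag

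Sh2d6 (chr6:72520138-72520225, minus strand): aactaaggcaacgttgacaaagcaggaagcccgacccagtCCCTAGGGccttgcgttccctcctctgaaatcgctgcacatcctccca

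Tac4 (chr11:95261295-95261382, plus strand): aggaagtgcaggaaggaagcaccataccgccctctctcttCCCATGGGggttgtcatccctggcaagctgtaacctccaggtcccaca

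Ank2 (chr3:126998617-126998702, minus strand): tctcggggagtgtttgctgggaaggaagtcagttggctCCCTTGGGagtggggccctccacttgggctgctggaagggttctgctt

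The presence of the core in these stretches follows from how they were picked. The centre of the core lay 9 bp from the DMSO summit at Stard10, which encodes a lipid transfer protein, and 18 bp at Tac4, which encodes the tachykinin hemokinin-1. The distance was 22 bp at 1700003F12Rik and at Kcnk4, which encodes a potassium channel, and 24 bp at Perm1, a regulator of muscle metabolism. It was 41 bp at Sh2d6, 43 bp at Gm14137 and 70 bp at Ank2, which encodes an ankyrin. The summit pileup of a peak, solved from its deposited fold enrichment and p-value, is the number of reads or fragments stacked at the summit. The region at Stard10 had summit pileups of 73 and 89 in the EBF1-dTAG_N DMSO libraries and of 33 and 30 in the EBF1-dTAG_C DMSO libraries. The authors' deposited tables give it log2 fold changes of -2.90 in EBF1-dTAG_N and -2.46 in EBF1-dTAG_C. The region at Tac4, with pileups of 88 and 49 in EBF1-dTAG_N and of 45 and 32 in EBF1-dTAG_C, stood at -1.26 in EBF1-dTAG_N and -0.80 in EBF1-dTAG_C by the authors' deposited tables. Tac4 thus lost its call in all 4 dTAG-13 lists at a fold well short of the median lost region. The Ank2 region was weak, with pileups of 9 and 8 in EBF1-dTAG_N and of 5 and 8 in EBF1-dTAG_C. By the authors' deposited EBF1-dTAG_C table Ank2, Perm1 and Sh2d6 had adjusted p above 0.05 (0.0526, 0.153 and 0.0839). The deposited EBF1-dTAG_N table had 1.97e-05, 9.4e-05 and 7.19e-06 for them.

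Over all promoter windows, 53.1% of those that overlap a lost region held CCCNNGGG, against 17.7% of 8953 that overlap a region kept in all 4 dTAG-13 lists. The share was 26.3% of 339 windows at regions with 1 to 3 dTAG-13 peaks and 13.7% of all 32851 windows. Per kb of window covered by the region there were 3.11 cores at lost regions (16 cores in 5138 bases), 1.21 at partly lost and 0.782 at kept regions. The GC content of the windows ran the other way, with 56.3% at lost, 59.5% at partly lost and 62.3% at kept regions. Of the 16 cores inside lost regions, 10 (62.5%) lay within 50 bp of the summit, against 35.1% of 77 cores inside partly lost and 32.5% of 1583 cores inside kept regions. Lost regions were shorter than kept ones (medians of 298 and 396 bp over all regions of each class), which limits how far a core inside them can lie from the summit. The part of length in this difference was not tested. Among the other motifs searched on both strands, the core flanked by that T and A was in 2 of 32 windows at lost regions (6.25%) and in 0.771% at kept regions. CAGCTG, a site of E proteins, was in 37.5% of windows at lost and 13.5% at kept regions, and GGAAGT, a site of ETS factors, in 37.5% at lost and 31.6% at kept regions. TGTTTAC, a site of forkhead factors, was in 6.25% at lost and 2.28% at kept regions. Over all windows these 4 motifs had shares of 0.904%, 16.3%, 23.8% and 3.65%, in the order named. At the 339 windows of partly lost regions the shares were 5.6%, 14.2%, 29.5% and 4.72%. The flanked core was thus about as frequent at partly lost as at lost regions. These counts describe letters in the 1.56% of lost regions that reach a promoter window, and the sequence of the other lost regions was not analysed here.

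The 8 peak lists held 34202 to 39721 peaks after dTAG-13 and 40166 to 42139 with DMSO. The lowest background pileup of a list, which follows relative depth, was 0.348 and 0.372 in the EBF1-dTAG_N dTAG-13 libraries, against 0.408 and 0.401 with DMSO. In EBF1-dTAG_C it was 0.229 and 0.258 after dTAG-13, against 0.344 and 0.331 with DMSO. The dTAG-13 libraries were thus shallower in both lines, and the part of depth in the loss of calls was not tested as a cause. The lowest summit pileup of any called peak was 4 in every dTAG-13 list, and the pileup needed for a call rises with the local background. With DMSO, 329 lost regions had a summit pileup of at least 30 in all 4 lists. Whether these would keep a call at the depth of the dTAG-13 libraries was not tested. The B lineage identity of the libraries, though not the pro-B stage, was checked with peaks within 1 kb of marker genes. Of 8 B lineage genes, 7 or 8 had a peak in every library, Rag1 being the gene that was missing in some, while 0 or 1 of 4 T lineage genes and 1 or 2 of 4 myeloid genes had one.

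Peak calls lost in all lists outnumbered those gained, in dTAG-13 libraries that were the shallower ones. Against 1917 lost regions, 68 regions had a peak in all 4 dTAG-13 lists and in no DMSO list. Of the other regions with 4 DMSO peaks, 20342 kept a peak in all 4 dTAG-13 lists and 4646 kept it in 1 to 3. Among these partly lost regions, 919 had 1 dTAG-13 peak, 1284 had 2 and 2443 had 3. Regions with 4 DMSO peaks and no dTAG-13 peak were therefore more numerous than those with 1, although the peak threshold alone sets the border between them. The authors' deposited tables, over the same regions, call 7318 falls and 9443 rises in EBF1-dTAG_N among 43139 regions with a value there, and 3593 falls and 167 rises in EBF1-dTAG_C.

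**Figure D1:**
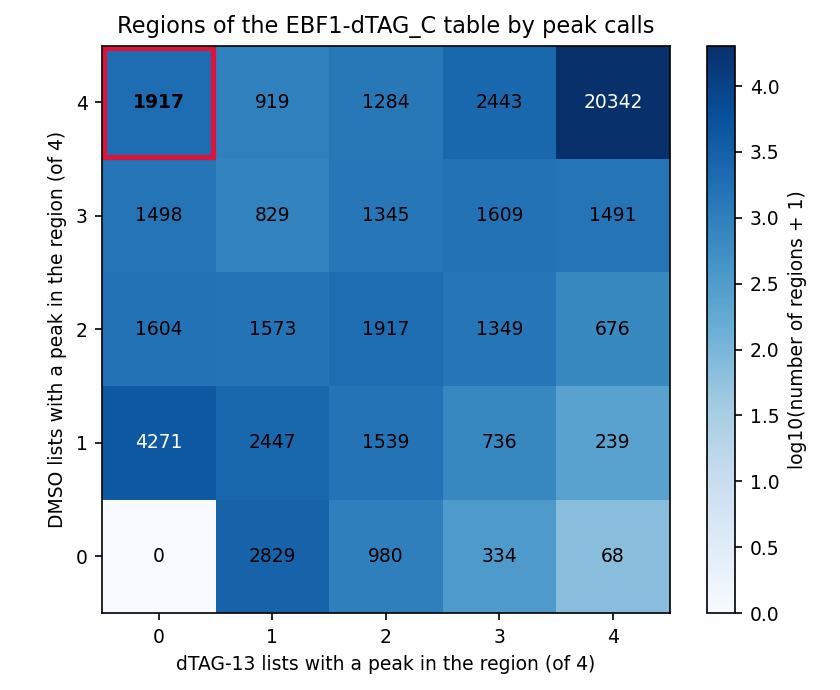
Number of regions of the EBF1-dTAG_C table by how many of the 4 dTAG-13 lists and of the 4 DMSO lists hold an overlapping peak. The 1917 lost regions sit at 4 DMSO lists and 0 dTAG-13 lists, and the 68 regions of the reverse pattern at 0 DMSO lists and 4 dTAG-13 lists.

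The DMSO peaks of a lost region, which overlap 1 region by the rule, were mostly close together. In 1912 of the 1917 lost regions each DMSO list held exactly 1 peak. The 4 summits of a region lay within 100 bp of each other in 1640 lost regions and within 50 bp in 1170, with a median range of 37 bp. After dTAG-13 the nearest peak of any list was a median of 3898 bp away, within 1 kb for 428 lost regions (22.3%) and within 200 bp for 95. The other 1489 lost regions had no dTAG-13 peak within 1 kb. Within 10000 bp, 72.8% of lost regions had one, and the distance was not compared with that of other regions. The median length of lost regions was 298 bp, the same as for partly lost regions, against 396 bp for kept regions and 287 bp for all regions.

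By their medians, lost regions were lower than kept ones in every DMSO library, though many were well above the threshold. The median summit pileup over lost regions was 33 and 30 in the EBF1-dTAG_N DMSO libraries, against 51 and 48 for kept regions. In the EBF1-dTAG_C DMSO libraries it was 17 and 17 for lost regions, against 45 and 42 for kept regions. Partly lost regions had medians of 22 and 21 in EBF1-dTAG_N and of 16 and 16 in EBF1-dTAG_C. A pileup of at least 10 in all 4 DMSO lists was seen at 1338 lost regions, and of at least 20 at 630. Ranked by fold enrichment within each list, 454 lost regions (23.7%) stood in the upper 50% of all 4 DMSO lists, against 63.5% of kept regions. Of the regions with 4 DMSO peaks, cut into 4 equal bands by the mean percentile of their fold enrichment over the DMSO lists, 12.7% were lost in the lowest band, then 9.07%, 5.04% and, in the highest, 1.74%. Weak peaks were lost more often than strong ones, and a peak near the threshold can lose its call with little change.

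**Figure D2:**
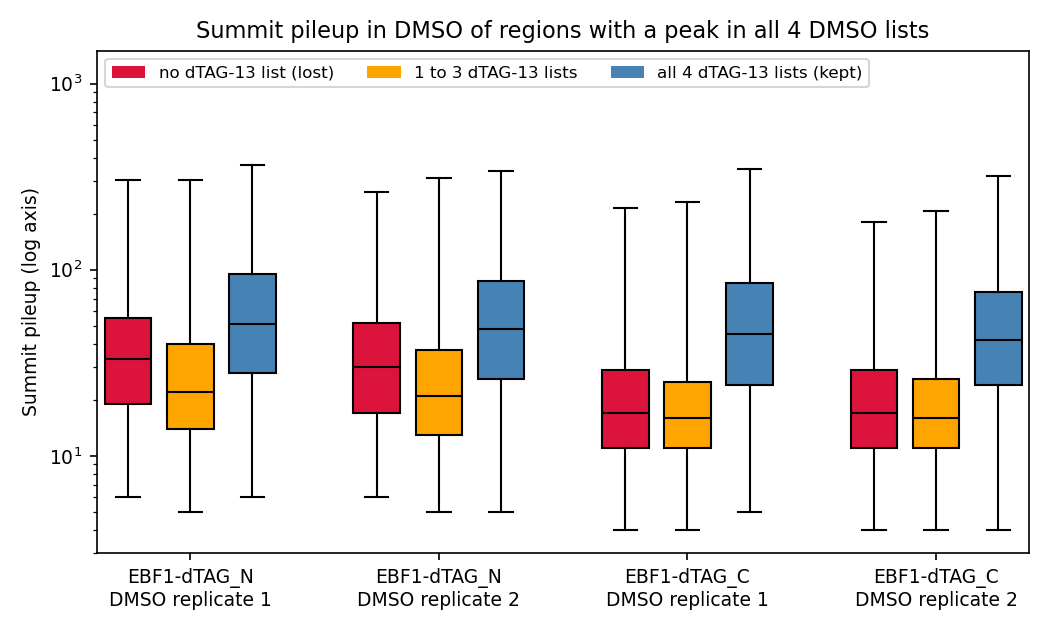
Summit pileup (log axis) of lost, partly lost and kept regions in each of the 4 DMSO libraries, drawn as boxes from the first to the third quartile with the median as a line and whiskers to the lowest and highest value. Lost regions have medians of 33 and 30 in the EBF1-dTAG_N libraries and of 17 and 17 in the EBF1-dTAG_C libraries, below the kept regions of the same library.

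The DMSO heights of lost regions are given by line as a description, since the peak calls that chose the regions depend on them. Their median summit pileup divided by that of kept regions was 0.636 ± 0.016 in the EBF1-dTAG_N and 0.391 ± 0.019 in the EBF1-dTAG_C DMSO libraries (SD, n = 2 each). Both EBF1-dTAG_N libraries (0.647 and 0.625) lay above both EBF1-dTAG_C libraries (0.378 and 0.405). No test of this difference of 0.245 is given. Measured as fold enrichment, which is relative to the local background, the ratios were 0.772 ± 0.0047 in EBF1-dTAG_N and 0.565 ± 0.019 in EBF1-dTAG_C (SD, n = 2 each), a difference of 0.207. Region by region, both EBF1-dTAG_N libraries exceeded both EBF1-dTAG_C libraries in fold enrichment at 58.6% of lost regions, against 23.6% of kept regions. The reverse order held at 6.73% of lost and 20.6% of kept regions. Partly lost regions lay between them, with 39.5% in the first order and 12.4% in the reverse order. The values were set side by side after they had been seen, and line and culture cannot be told apart.

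The deposited folds of the lost regions were finite, and signal over background after dTAG-13 was not measured at regions with no peak. The folds come from the contrast that chose the regions, so they are given as a description. In the authors' deposited EBF1-dTAG_N table the median log2 fold change of the lost regions was -2.83, a signal 7.11-fold lower after dTAG-13, with a range of -9.21 to 0.56. The authors' deposited EBF1-dTAG_C table had a median of -2.51 (5.69-fold lower) and a range of -8.85 to 0.26. Kept regions had medians of 0.20 in EBF1-dTAG_N and 0.10 in EBF1-dTAG_C in the authors' deposited tables, and all regions 0.18 in EBF1-dTAG_N and 0.09 in EBF1-dTAG_C. A fall, at an adjusted p under 0.05 by the authors' deposited tables, was called for 1828 lost regions (95.4%) in EBF1-dTAG_N, where 18.5% of the 55193 regions of that line's own table were called as falls. In EBF1-dTAG_C it was called for 1329 (69.3%), where 6.62% of the 54239 regions were called as falls. Both deposited tables called 1327 lost regions, against 3444 of the 43139 regions with a value in both. The p-values of the lines are not comparable, because the deposited test had about 110000 denominator degrees of freedom in EBF1-dTAG_N and 11.2 in EBF1-dTAG_C.

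The label of a complete loss was checked against the deposited folds, which were small at some regions. By both deposited comparisons, 1709 lost regions (89.1%) had a log2 fold change of -1 or less. The other regions include 84 above -1 in both authors' deposited tables, 2 of them positive in both. Counted over all lost regions, 87 were called as a fall in neither table, against 35783 of the 43139 regions with a value in both. A taller DMSO peak had to fall further to lose its call, so the order of the next values follows from the choice of regions. Over 4 equal bands of lost regions, from low to high fold enrichment, the median log2 fold change of the authors' deposited EBF1-dTAG_N table was -1.92, -2.45, -3.02 and -3.59. The same bands had -1.70, -2.31, -2.61 and -3.23 in the authors' deposited EBF1-dTAG_C table. Between the lines, the deposited folds of the 1917 regions had a Pearson r of 0.70 and a Spearman rho of 0.74, across regions that share the choice and are not independent. The fold was more negative in EBF1-dTAG_N at 1267 lost regions and in EBF1-dTAG_C at 650.

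**Figure D3:**
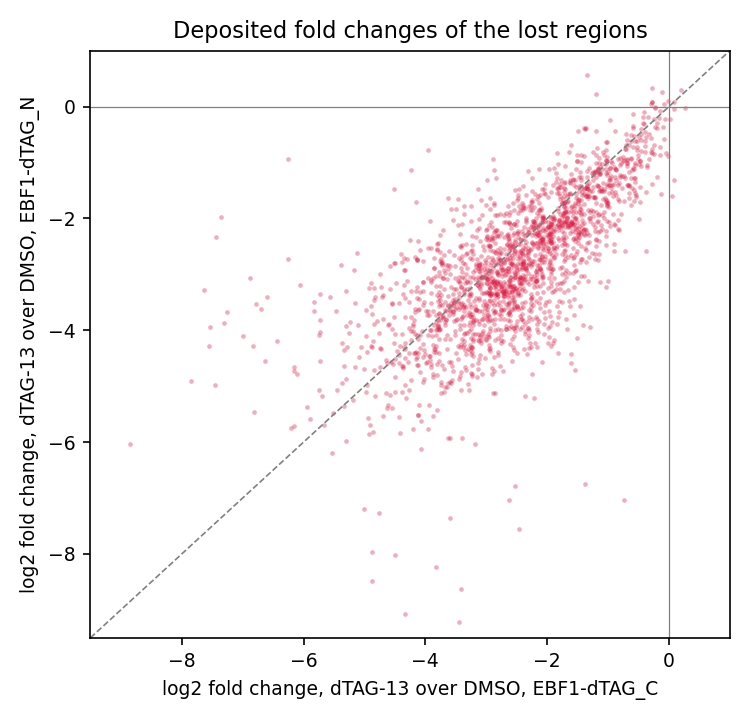
Deposited log2 fold change of dTAG-13 against DMSO in EBF1-dTAG_C (horizontal) and in EBF1-dTAG_N (vertical), with 1 point for each of the 1917 lost regions and equal folds on the dashed line. Most points lie below 0 on both axes, and 1267 lie below the dashed line, where the fold is more negative in EBF1-dTAG_N.

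At the edge of the rule lie regions with 1 weak peak. The 3 lost regions with the weakest DMSO peak were inside Parn, Foxp4 and Lsp1, with a smallest −log10 q of 2.18, 2.19 and 2.24. Just outside the rule were a region 120689 bp from Rad51b, 1 near Glt28d2 and 1 near Zfp36l2, each with 4 DMSO peaks and 1 dTAG-13 peak, of −log10 q 2.04, 2.07 and 2.10. The Parn region had pileups of 19 and 9 in the EBF1-dTAG_N and of 4 and 6 in the EBF1-dTAG_C DMSO libraries, and the Rad51b region had 135 and 146 in EBF1-dTAG_N and 71 and 38 in EBF1-dTAG_C. By the authors' deposited EBF1-dTAG_N table the Rad51b region was 11.2-fold lower, more than the median lost region.

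The 12 lost regions with the highest DMSO fold enrichment had mean folds over background of 26.4 to 32.5 and the nearest genes are of varied function, 2 of them beyond 100 kb. The highest was inside Trappc9, a subunit of a vesicle tethering complex (chr15:72896993-72897299, GRCm38), and had no peak after dTAG-13. Its DMSO pileups were 130 and 96 in EBF1-dTAG_N and 61 and 80 in EBF1-dTAG_C. It was 26.8-fold lower in EBF1-dTAG_N and 16.9-fold lower in EBF1-dTAG_C by the authors' deposited tables (with adjusted p = 6.84e-51 and 0.000106). A region 6572 bp outside Cyb5r4, a cytochrome b5 reductase, had pileups of 125 and 127 in EBF1-dTAG_N and of 104 and 89 in EBF1-dTAG_C. A region 37417 bp outside Epas1, which encodes a hypoxia-inducible factor, had 163 and 151 in EBF1-dTAG_N but 48 and 51 in EBF1-dTAG_C. It was 43.0-fold lower in EBF1-dTAG_N and 13.9-fold lower in EBF1-dTAG_C by the authors' deposited tables. A region 45116 bp outside Lifr, a cytokine receptor of the gp130 family, was as high in both lines, with 136 and 126 in EBF1-dTAG_N and 128 and 122 in EBF1-dTAG_C. The others were inside Cep95, the calcium/calmodulin-dependent kinase gene Camk4 and Klhl14, outside Ccdc177, Snai1, Ptpn1 and Prelid2, and 1333164 bp from Rpia. Over these 12 the falls of the authors' deposited tables ran from 5.78-fold at Snai1 in EBF1-dTAG_C to 57.5-fold at Ptpn1 in EBF1-dTAG_N.

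The 8 lost regions with the largest falls, ranked by the smaller of their deposited folds, were none of the 12 tallest. Of these, a region inside Cog5, a Golgi complex subunit, had 165 and 147 in EBF1-dTAG_N and 40 and 36 in EBF1-dTAG_C, with -5.71 in EBF1-dTAG_N and -6.16 in EBF1-dTAG_C by the authors' deposited tables. A region 150473 bp from the nuclear receptor gene Rorb had 189 and 148 in EBF1-dTAG_N and 49 and 31 in EBF1-dTAG_C. Its DMSO signal was high in EBF1-dTAG_N and lower in EBF1-dTAG_C, without overlap. A region inside Ankmy1 had 28 and 38 in EBF1-dTAG_N and 11 and 15 in EBF1-dTAG_C, with -6.19 in EBF1-dTAG_N and -5.54 in EBF1-dTAG_C by the authors' deposited tables. Regions nearest to Pom121l12 and Spring1 were also among the 8.

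Lost regions were rarely at gene boundaries. Within 1 kb of the start or end of a protein-coding gene lay 120 of 1917 lost regions (6.26%, 95% Wilson interval 5.26 to 7.43), against 39.9% of kept regions (39.2 to 40.5) and 20.8% of all regions. Inside a gene and beyond 1 kb of its ends lay 1039 lost regions (54.2%), against 32.9% of kept regions. Outside genes but within 100 kb of one lay 637 (33.2%), and farther away 121 (6.31%), against 23.5% and 3.78% of kept regions. Partly lost regions stood at 12.8% near a boundary, 47.5% inside genes, 33.7% within 100 kb and 6.03% farther away. Away from boundaries, their shares were thus near those of lost regions. Of all regions, 43.3% lay inside genes beyond 1 kb of the ends, 30.2% within 100 kb and 5.64% farther away. The intervals cover counting error only. Because weak peaks were lost more often, the share was also taken within the 4 bands of DMSO fold enrichment. Near a gene boundary 4.94%, 2.64%, 0.576% and 0.053% of regions with 4 DMSO peaks were lost, from the lowest to the highest band. Elsewhere 14.6%, 10.8%, 7.29% and 3.89% were lost, so the share was lower near gene boundaries at every height. By chromosome, the lost share of regions with 4 DMSO peaks ran from 5.12% on chromosome 10 to 8.24% on chromosome 5 among the autosomes, and was 6.02% on the X.

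**Figure D4:**
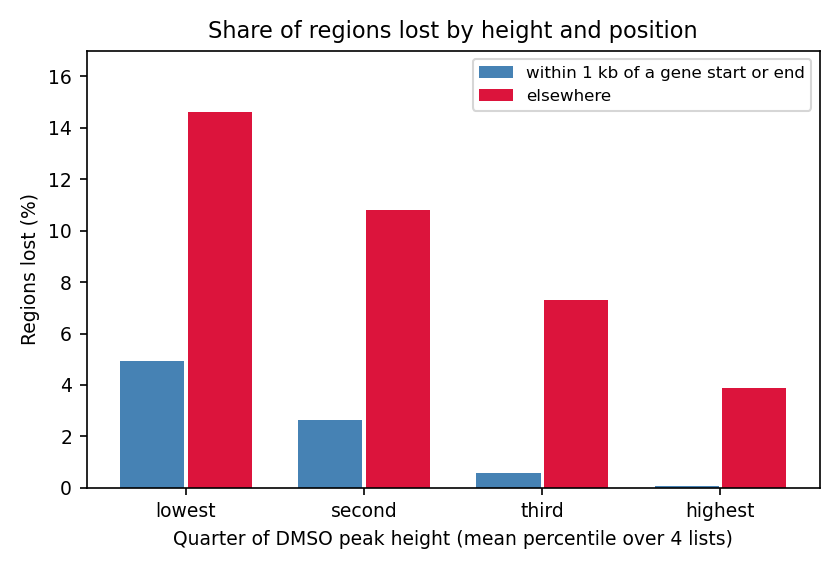
Percent of regions with a peak in all 4 DMSO lists that were lost, by band of DMSO peak height (4 bands of equal size by mean percentile of fold enrichment, lowest to highest), for regions near a gene start or end and for the others. Near a gene boundary the share runs from 4.94% to 0.053%, and elsewhere from 14.6% to 3.89%.

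Of the 1917 lost regions, 1796 could be assigned to a nearest protein-coding gene within 100 kb. They belong to 1488 genes, which is 12.7% of the 11745 genes with at least 1 region of 4 DMSO peaks. A single lost region was found at 1239 of these genes, and 249 had 2 or more. At 1198 of the genes a kept region was also present, while 290 had none. The nearest gene is a position and not a measured target.

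A lost region was found at 12.7% of all genes with a region of 4 DMSO peaks. Among genes of the B lineage, 20 of 69 in the lists of targets, signalling genes and transcription factors had one. These genes held 28 lost regions in all. All 28 were called as a fall in the authors' deposited EBF1-dTAG_N table (median -2.62 on the log2 scale) and 16 in the EBF1-dTAG_C table (median -1.90). Over all lost regions 95.4% were called in EBF1-dTAG_N and 69.3% in EBF1-dTAG_C, and over all regions of each line's table these shares were 18.5% in EBF1-dTAG_N and 6.62% in EBF1-dTAG_C. They are part of the lost regions, for which these medians were -2.83 in EBF1-dTAG_N and -2.51 in EBF1-dTAG_C by the authors' deposited tables. By region, the lists were close to the series. Of the regions with 4 DMSO peaks nearest to a target gene 7.91% were lost (11 of 139), to a signalling gene 5.7% (9 of 158) and to a transcription factor gene 6.5% (13 of 200), against 7.13% overall.

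Transcription factor genes come first in this programme, and 10 of the 25 with a region of 4 DMSO peaks had a lost one. Over all such genes the share was 12.7%. Of their 200 regions with 4 DMSO peaks 6.5% were lost, against 7.13% of all such regions. Of the 14 regions with 4 DMSO peaks nearest to Ebf1 itself, 1 was lost, and it lies inside the gene (chr11:45001928-45002341). It had pileups of 36 and 40 in EBF1-dTAG_N and of 11 and 11 in EBF1-dTAG_C, with log2 fold changes of -3.31 in EBF1-dTAG_N and -1.72 in EBF1-dTAG_C by the authors' deposited tables. The Ebf1 gene kept 11 of its other regions in all 4 dTAG-13 lists. Ikzf3, which encodes the zinc finger factor Aiolos, lost 2 of 5 regions, both inside the gene. The first had pileups of 51 and 42 in EBF1-dTAG_N against 6 and 13 in EBF1-dTAG_C, and its fall by the authors' deposited tables was called in EBF1-dTAG_N (-4.29) and not in EBF1-dTAG_C (-2.56, adjusted p = 0.117). Bach2, a repressor that acts in pre-B cells, lost 2 of 19 regions. The taller of them had 44 and 35 in EBF1-dTAG_N and 27 and 36 in EBF1-dTAG_C, with -2.72 in EBF1-dTAG_N and -3.15 in EBF1-dTAG_C by the authors' deposited tables. A region 55339 bp outside Lef1, an effector of Wnt signalling, and a region 1327 bp outside Irf8, a factor shared by B and myeloid cells, were both called as falls in both deposited tables. The region near Pou2f2, which encodes the octamer-binding factor Oct2, stood at -2.59 in EBF1-dTAG_N and -1.51 in EBF1-dTAG_C by the authors' deposited tables, called in EBF1-dTAG_N alone. The zinc finger gene Klf2 had 2 lost regions, which the authors' deposited tables also call in EBF1-dTAG_N alone. The one 14951 bp away stood at -1.27 in EBF1-dTAG_N and -0.57 in EBF1-dTAG_C, and the one 1157 bp away at -0.61 in EBF1-dTAG_N and -0.62 in EBF1-dTAG_C, by the authors' deposited tables. At the E protein genes Tcf3 and Tcf12 and at Ets1 the folds in the authors' deposited tables were smaller, between -1.44 and -0.98 in EBF1-dTAG_N and between -1.51 and -0.48 in EBF1-dTAG_C.

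Of genes taken as EBF1 or B lineage targets, 7 of the 27 with a region of 4 DMSO peaks had a lost one, against 12.7% of all such genes. By region, 7.91% of their 139 regions with 4 DMSO peaks were lost, against 7.13% overall. Cplx2, which encodes a complexin of the secretory machinery, lost 3 of 12 regions. The region 33866 bp outside the gene had pileups of 65 and 69 in EBF1-dTAG_N and of 75 and 57 in EBF1-dTAG_C, and was 10.4-fold lower in EBF1-dTAG_N and 7.02-fold lower in EBF1-dTAG_C by the authors' deposited tables. A region 55364 bp outside Hes1, a repressor downstream of Notch, had 66 and 83 in EBF1-dTAG_N and 89 and 74 in EBF1-dTAG_C. It was 7.73-fold lower in EBF1-dTAG_N and 5.87-fold lower in EBF1-dTAG_C by the authors' deposited tables, and the lines overlapped in their DMSO height. Ptprc, which encodes the phosphatase CD45, lost 2 of 6 regions, both outside the gene and called as falls in EBF1-dTAG_N, and 1 of them in EBF1-dTAG_C. The surrogate light chain genes Igll1 and Vpreb1 and the receptor component gene Cd79a, textbook targets of EBF1, were the nearest gene of no lost region.

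Genes of pre-B cell receptor signalling, the pathway from the receptor through the kinase Syk and the adaptor Blnk to phospholipase C, had a lost region in 7 of the 27 cases with a region of 4 DMSO peaks. Over all such genes the share was 12.7%. By region, 5.7% of their 158 regions with 4 DMSO peaks were lost, against 7.13% overall. Of the 12 such regions nearest to Vav2, a guanine nucleotide exchange factor, 2 were lost, both inside the gene. The taller had pileups of 93 and 107 in EBF1-dTAG_N and of 58 and 80 in EBF1-dTAG_C, with log2 fold changes of -3.34 in EBF1-dTAG_N and -2.92 in EBF1-dTAG_C by the authors' deposited tables. Bank1, a B cell scaffold protein gene, lost 2 of 10, both called as falls in both deposited tables. The region 13199 bp outside Blnk was tall in EBF1-dTAG_N (41 and 34) and low in EBF1-dTAG_C (8 and 8), and its fall of -2.44 in the authors' deposited EBF1-dTAG_C table was not called (adjusted p = 0.114). The region inside Syk, with 52 and 39 in EBF1-dTAG_N and 18 and 27 in EBF1-dTAG_C, stood at -0.81 in EBF1-dTAG_N and -1.64 in EBF1-dTAG_C by the authors' deposited tables, and the difference between the lines was not tested. The region near the start or end of Plcg2 had 107 and 110 in EBF1-dTAG_N and 25 and 26 in EBF1-dTAG_C. It lost its peak calls at a modest fold, -1.40 in EBF1-dTAG_N and -0.84 in EBF1-dTAG_C by the authors' deposited tables. The regions at the kinase genes Fyn and Pik3cg stood at -1.57 and -1.42 in the authors' deposited EBF1-dTAG_N table, and neither was called in EBF1-dTAG_C.

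**Figure D5:**
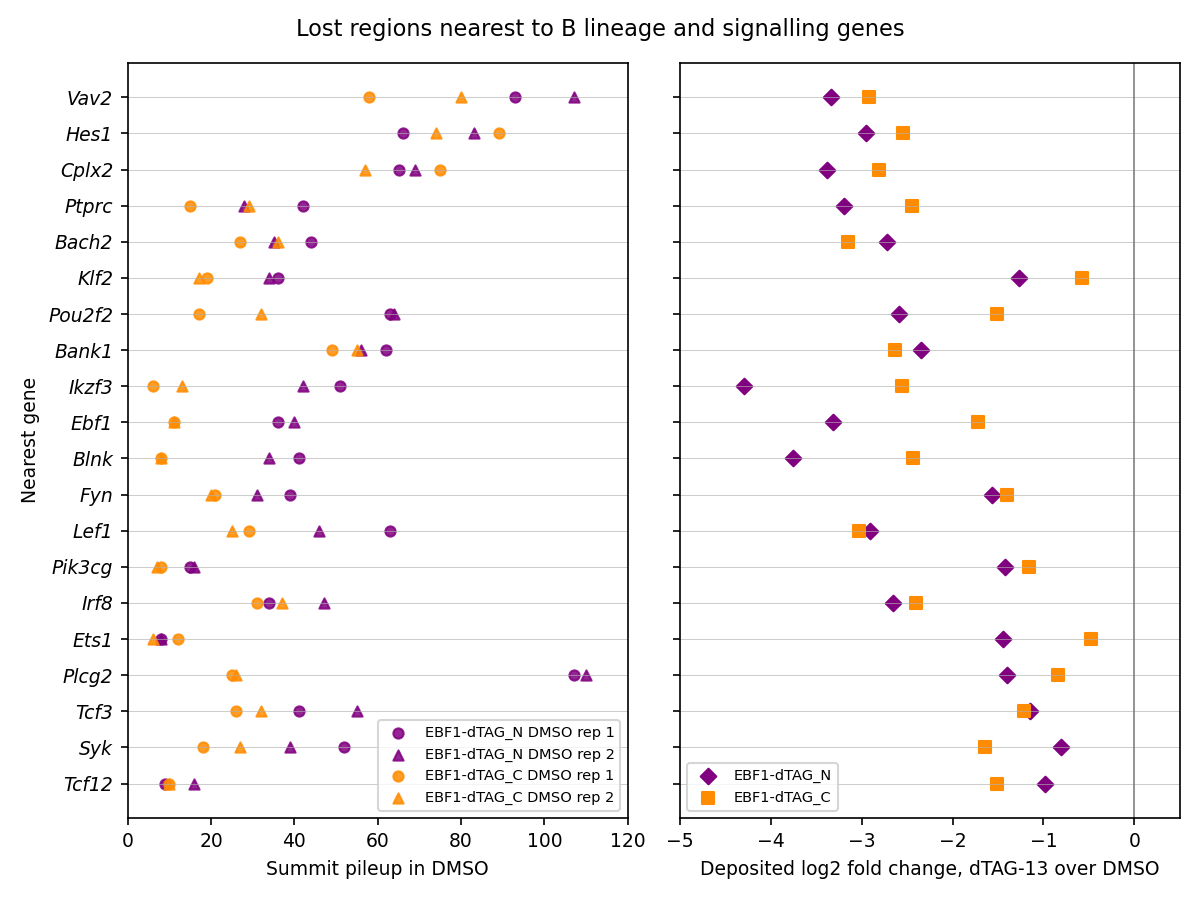
Lost regions nearest to 20 listed B lineage genes, 1 per gene, with the summit pileup in each DMSO library on the left and the deposited log2 fold change of dTAG-13 against DMSO in each line on the right. Vav2, Hes1 and Cplx2 are tall in all 4 DMSO libraries, and Ebf1, Ikzf3 and Blnk are taller in the EBF1-dTAG_N than in the EBF1-dTAG_C libraries.

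The counts for the other lists are again over genes with a region of 4 DMSO peaks, of which 12.7% had a lost region overall. Of proliferation and survival genes 3 of 20 had a lost region (Ccnd1, Bcl2l1 and Abl1), of T and innate lymphoid markers 1 of 9 (Tcf7), of myeloid markers 0 of 5 and of housekeeping genes 2 of 15 (Actb and Ywhaz). The region 97433 bp from the cyclin gene Ccnd1 had pileups of 33 and 33 in EBF1-dTAG_N and of 23 and 24 in EBF1-dTAG_C, and was 23.4-fold lower in EBF1-dTAG_N and 99.4-fold lower in EBF1-dTAG_C by the authors' deposited tables. Inside Bcl2l1, which encodes the survival factor Bcl-xL, the taller of 2 lost regions had 110 and 107 in EBF1-dTAG_N and 34 and 24 in EBF1-dTAG_C. It was 8.81-fold lower in EBF1-dTAG_N and 5.49-fold lower in EBF1-dTAG_C by the authors' deposited tables. Both lost regions inside Abl1 lie in the cellular gene whose viral relative transformed these cells, and were called as falls in EBF1-dTAG_N. By the authors' deposited tables they stood at -1.56 and -1.08 in EBF1-dTAG_N and at -1.35 and -0.36 in EBF1-dTAG_C. The second was not called in EBF1-dTAG_C (adjusted p = 0.693). A region 15964 bp outside the actin gene Actb was 24.9-fold lower in EBF1-dTAG_N and 20.7-fold lower in EBF1-dTAG_C by the authors' deposited tables, so a large loss also lay near a gene that every cell uses.

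A few genes had several lost regions. Col26a1, which encodes a collagen, had the most, with 6 of 14 regions with 4 DMSO peaks lost, 5 of them inside the gene. The tallest (chr5:136754094-136754446) had pileups of 139 and 164 in EBF1-dTAG_N and of 90 and 76 in EBF1-dTAG_C, and was 12.4-fold lower in EBF1-dTAG_N and 12.8-fold lower in EBF1-dTAG_C by the authors' deposited tables. The region 4001 bp outside Col26a1 was weak, with pileups of 13 and 8 in EBF1-dTAG_N and of 8 and 13 in EBF1-dTAG_C. By the authors' deposited tables it stood at -0.96 in EBF1-dTAG_N and -1.03 in EBF1-dTAG_C, called as a fall in neither. The neighbouring gene Myl10 had 4 lost regions, and the 10 regions of both genes lie within 213 kb of chromosome 5 (136630407 to 136843287). Pax7, a transcription factor of muscle and neural crest, had 5 of 6 lost and none kept, all inside the gene. The tallest region of Pax7 had 114 and 121 in EBF1-dTAG_N and 101 and 136 in EBF1-dTAG_C, with overlap between the lines. The authors' deposited tables give the 5 regions of Pax7 log2 fold changes of -4.56 to -3.24 in EBF1-dTAG_N and of -7.54 to -1.98 in EBF1-dTAG_C. The -7.54 was at a weak region, with DMSO pileups of 12 and 20 in EBF1-dTAG_C, which stood at -3.94 in EBF1-dTAG_N. All 4 lost regions of Cmip lie inside the gene, and 3 of the 4 of Sgip1. In all, 9 genes had exactly 4 lost regions, and Cmip, Myl10 and Sgip1 come first among them by their smaller number of regions and then by name. Across the genome 42% of lost regions had another lost region within 100 kb, whereas 93.3% of the more numerous kept regions had another kept region that near.

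The immunoglobulin loci, looked at after the values had been seen, are given beside the 7.13% lost over all regions with 4 DMSO peaks. In the kappa light chain locus (chromosome 6, 67555636 to 70726754) 28 of 131 regions with 4 DMSO peaks were lost, 37 were partly lost and 66 kept. The 28 had median log2 fold changes of -3.80 in EBF1-dTAG_N and -3.39 in EBF1-dTAG_C by the authors' deposited tables, and 26 of them lay beyond 100 kb of any protein-coding gene of the RefSeq table, which does not count the gene segments. The heavy chain locus lost 3 of 95 such regions and the lambda locus 1 of 7. The region nearest to Rpia, named for its height, lies inside the kappa locus.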

How the data were processed

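ATAC-seq was measured in 8 libraries of 2 lines. The submitters' processing notes name, without their roles, edgeR 3.32.0, MACS2 2.2.7.1 and Bowtie2 2.3.5.1, and the build GRCm38 (mm10). For read filters and Tn5 shifting nothing is given in the sources used. The authors' peak lists, 1 per library, hold a score, a fold enrichment over local background, −log10 p-values and −log10 q-values. The authors' deposited edgeR tables hold per region log2 fold changes and log2 CPM, a score (F), and p-values before and after adjustment, with no values per library, so no region was refitted. These tables contain 8 (EBF1-dTAG_C) and 12 (EBF1-dTAG_N) repeated rows, which were dropped; EBF1-dTAG_N regions were paired by largest overlap. Read depth is unknown; the precision of a peak height is that of its pileup.

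With Python 3.11.15, pandas 2.3.3 and SciPy 1.17.1, summit pileup and background were solved from fold and p-value (tolerance 1e-04), which worked for 99.71% to 99.99% of peaks per list and was tested on simulated data. Genes and promoters come from RefSeq (GRCm38.p6; 21887 protein-coding gene spans, without strand, exons or UTRs). No test of the members is reported, since the contrast chose them. Alternatives changed the peak threshold, overlap, list length, libraries, gene limits and region table. Members named are the 12 highest by DMSO fold enrichment, the 8 with the largest falls, up to 20 listed genes, the 5 genes with most members and 3 on either side of the threshold. A few of these members are not reported here. Members and lists were chosen with earlier results of these data known.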

Additional observations from a re-analysis of the deposited data

How the results depend on the processing

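The number of lost regions stayed within 1.5 times of 1917 in every alternative run. It was 1925 with 50% overlap, 1874 when all lists were limited to −log10 q of at least 5, 1687 with that limit on DMSO peaks alone, 1482 with the best 34202 peaks of each list, 1489 with no dTAG-13 peak within 1 kb and 1918 over regions of the EBF1-dTAG_N table. With equal lists 1353 of the 1917 regions (70.6%) were shared. Leaving out 1 library gave 2057 to 2613, the most without EBF1-dTAG_C DMSO replicate 1. Median deposited folds kept their sign throughout.

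The percent called as a fall in the authors' deposited EBF1-dTAG_C table was 69.3, and 73.5 with −log10 q of at least 5 in all lists, 74.8 with that limit on DMSO peaks and 81.6 with equal lists, and over the libraries left out it was 55.8 to 67.7. For EBF1-dTAG_N, at 95.4 by the authors' deposited table, it was 96.3 with the limit on DMSO peaks, 98.2 with equal lists and 90.5 to 93.9 over the libraries left out. The percent near a gene start or end was 4.16 with no dTAG-13 peak within 1 kb and 11.4 at 2 kb, and that inside genes 51.1 at 2 kb. With no dTAG-13 peak within 1 kb, 4 signalling genes had a lost region in place of 7, and with a gene limit of 20 kb, 4 target genes in place of 7. The difference in relative height between the lines was 0.197 to 0.277 in the alternatives. A larger set after leaving out a library follows from the rule, which then asks for fewer lists; the cause of the other shifts was not tested. No paired analysis was possible because no result comes from a test, the deposited comparisons hold no values per library, and the peak names carry other replicate numbers than the titles.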
